A study of Saccharomyces cerevisiae with 76 samples.

Results

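The genes described here are 10 that encode enzymes of glycolysis and of the fermentation of pyruvate to ethanol in *Saccharomyces cerevisiae*, namely FBA1, TPI1, TDH3, TDH2, PGK1, GPM1, ENO1, ENO2, PDC1 and ADH1. They were chosen by name, and an Abf1 ChIP-seq summit was given to a gene when it lay inside the ORF or at most 1000 bp upstream of the start codon. By this rule 12 of the 948 summits in the peak list fell to these genes, and they were spread over 6 of the 10. A summit is the base of highest signal in a peak, and an interval can hold more than 1 of them.

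The series holds 76 samples of an Abf1 depletion time course, with immunoprecipitations and inputs. The tagged strain was BY4742 (MATalpha) with the alleles tor1-1 and fpr1del, the anchor RPL13A-FKBP12-NAT and the fusion Abf1-FRB-yEGFP-3V5-hphMX4, and chromatin was precipitated with an antibody to V5. All Abf1 in these cells therefore carries the tag. Rapamycin at 7.5 µM moves such a protein out of the nucleus, and samples were taken at 11 times between 0 and 90 min, but only cells at 0 min, which received DMSO for 90 min and no rapamycin, gave the values below. The authors called the peaks once, on 3 immunoprecipitations against 3 inputs pooled, so each summit has 1 value with no spread between replicates, and no test across samples could be made. The 3 immunoprecipitations of the untagged parental strain at 0 min, which shares all alleles but the Abf1 fusion, were not analysed here, and the part of the signal that does not depend on the tag was not tested.

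Abf1 is an essential general regulatory factor that binds DNA in a sequence-specific way, mostly in promoters, and keeps nucleosomes away from its sites. Glycolysis splits glucose into pyruvate, and yeast growing on glucose turns most of that pyruvate into ethanol. The genes of this pathway are among the most strongly transcribed in yeast, and their promoters are known as targets of the activator Gcr1 with its partner Gcr2 and of Rap1. An Abf1 motif here is a match of at least 85% of the score range of a matrix with 15 positions, with its midpoint at most 100 bp from the summit. The strict Abf1 consensus is a set of 13 positions with a fixed start and end around a variable middle.

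The 10 genes had 1 strong promoter summit, at FBA1 with a fold enrichment of 23.5, and low, broad signal of 2.01 to 3.29 over the coding regions of 6. A summit lay inside the ORF of 6 of the 10 genes (FBA1, TDH3, PGK1, ENO2, PDC1 and ADH1), against 124 of 6002 ORFs in the genome, or 2.07%. An upstream summit with an Abf1 motif was present at 2 of the 10 (FBA1 and PGK1), against 818 of 6002 ORFs, or 13.6%. The same 6 genes had a summit in either position, against 1167 ORFs, or 19.4%. The count inside the ORFs was far above the genome's share and the count of promoter summits was close to it. The genes were listed with earlier results of these data known, so these counts describe the list and test nothing. TPI1, TDH2, GPM1 and ENO1 had none in either position.

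**Figure D1:**
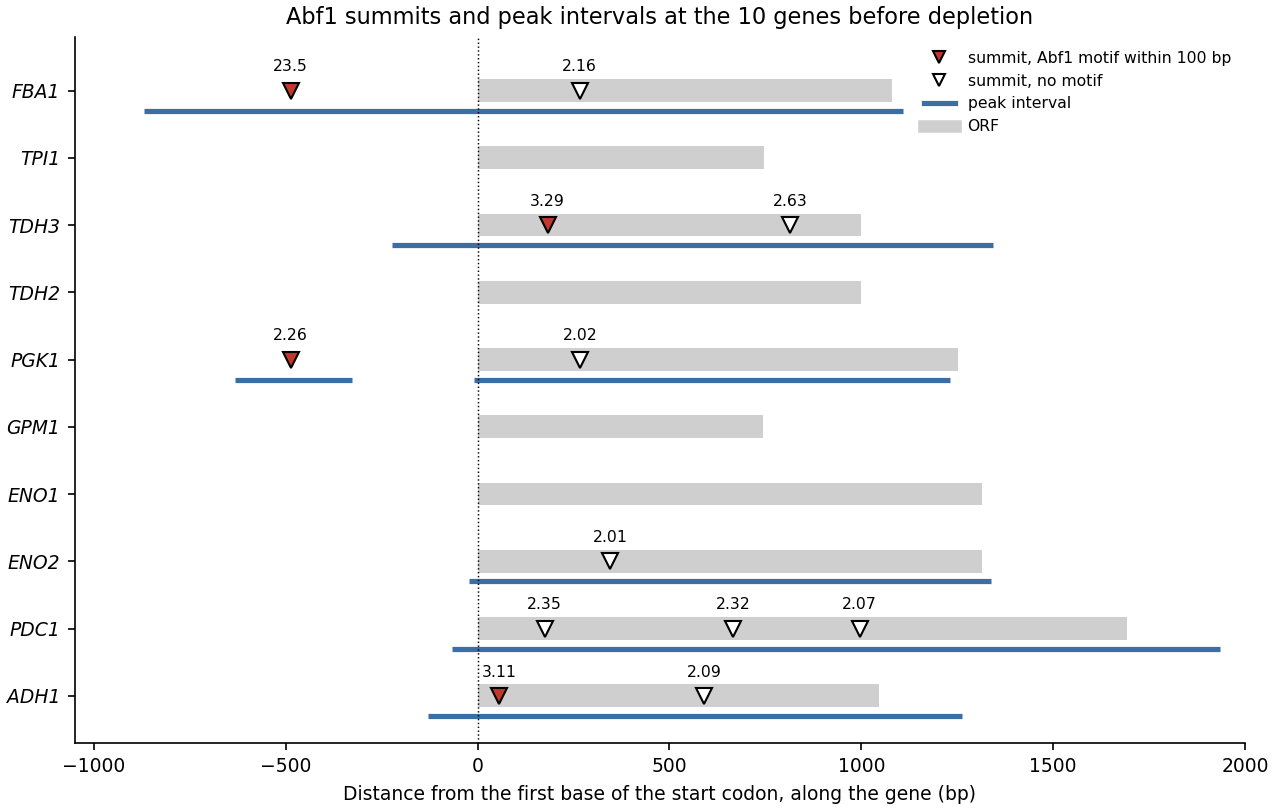
Map of the 10 genes, with the distance along the gene from the first base of the start codon in bp on the horizontal axis, ORFs as grey bars, peak intervals as blue lines and summits as triangles labelled with their fold enrichment, filled where an Abf1 motif lay within 100 bp. FBA1 and PGK1 each had an upstream summit 487 bp before the start codon, with fold enrichments of 23.5 and 2.26, and the 6 intervals over ORFs ran across nearly the whole coding region.

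The letters under the promoter summits are shown first, because 4 of the 10 genes carried an exact Abf1 consensus at a like distance from the start codon and differed in what was measured there. Each line gives 21 bases of sacCer3 (R64) centred on the motif, 5′ to 3′ on the stated strand, with the 13 consensus positions in capitals.
FBA1, 484 bp upstream, chrXI:327961-327981, plus strand: tcctATCATTATTTACGtaat
PGK1, 508 bp upstream, chrIII:137228-137248, minus strand: acaaATCACGAGCGACGgtaa
ENO2, 502 bp upstream, chrVIII:450815-450835, plus strand: ttatGTCACTAACGACGtgca
TDH2, 479 bp upstream, chrX:455150-455170, minus strand: gtatGTCATGAAATACGttgt
The FBA1 and PGK1 sites had a summit within 100 bp, with fold enrichments of 23.5 and 2.26. The ENO2 site, which lies inside the ORF YHR173C, and the TDH2 site had none. The matrix scores of the 4 sites were 0.970, 0.904, 0.926 and 0.921 in that order, where 1 is the best score possible, so the PGK1 site with a summit scored lower than both sites without one. A match of 0.9 or more lay in the 1000 bp upstream of 4 of the 10 genes, against 1331 of 6002 ORFs, or 22.2%. The share of all ORFs with an exact consensus upstream was not counted.

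The base 8 bp before the motif midpoint (−8 bp) was a C at FBA1 and an A at PGK1, ENO2 and TDH2. The study kept sites with a G or C at this base for its rate measurements because these cross-link efficiently, so the base was read at every exact consensus in the genome. Of 1785 sites, 655 had an A at −8 bp, and 34.5% of these had a summit within 100 bp (95% Wilson interval 31.0 to 38.2%), at a median fold enrichment of 4.47. A T was found at 562 sites, of which 25.3% had a summit, with a median of 4.16. A C was found at 281 sites, of which 42.0% had a summit, and a G at 287, of which 47.7% had one. The sites with a summit had median fold enrichments of 15.7 at C and 17.5 at G, more than 3 times those at A and T.

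Outside ORFs the shares with a summit were 46.6% for A and 37.8% for T, against 74.0% for C and 76.8% for G. The gap between these pairs exceeded the counting error of the shares, although neighbouring sites can share a summit and are not independent. With 3 sites at A and 1 at C, the 4 genes give too few sites to set the bases against each other. Sites without a summit have no fold enrichment, so medians cover only the sites with one. FBA1, the site with the C, was above the median of such C sites outside ORFs, which was 16.4. The PGK1 value was below the median of the A sites outside ORFs that had a summit, which was 4.51. Since 46.6% of A sites outside ORFs had a summit, this does not place PGK1 among all A sites.

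**Figure D2:**
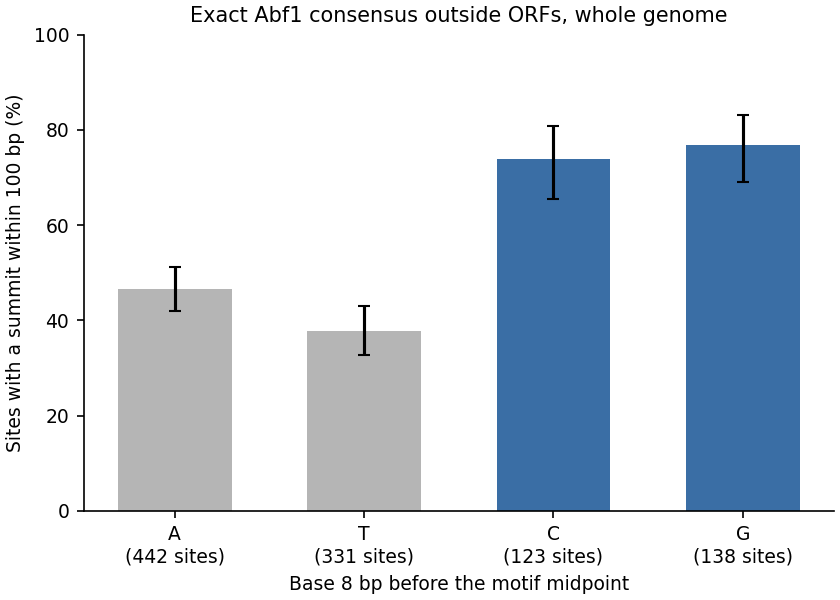
Percent of exact Abf1 consensus sites outside ORFs that had a summit within 100 bp (vertical axis), by the base 8 bp before the motif midpoint (horizontal axis, with the number of sites), over the whole genome, with 95% Wilson intervals as error bars. Sites with A or T had a summit in 46.6% and 37.8% of cases and sites with C or G in 74.0% and 76.8%.

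FBA1 encodes fructose-bisphosphate aldolase, which splits the hexose bisphosphate into triose phosphates. The gene YKL060C lies on chromosome XI from 326408 to 327487 on the minus strand. Its upstream summit at 327974 had 3412 fragments over a background of 144, a fold enrichment of 23.5 (22.7 to 24.3, exact 95% Poisson interval on the fragments, which covers counting error only). It ranked 96 of 948, and its motif lay 3 bp from the summit. The summit sits in the intergenic stretch between FBA1 and MPE1, 144 bp from the end of the MPE1 ORF, and both genes are transcribed in the same direction. The same interval of 1980 bp continued over the whole FBA1 ORF, where a summit at 266 bp had 310 fragments over a background of 143, a fold enrichment of 2.16 (1.93 to 2.41). That ORF summit ranked 883, and the best match near it scored 0.785.

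PGK1 encodes phosphoglycerate kinase, the enzyme of the first ATP-forming step of the pathway. The gene YCR012W lies on chromosome III from 137746 to 138996 on the plus strand. Its upstream summit at 137259 had 332 fragments over a background of 146, a fold enrichment of 2.26 (2.03 to 2.52), and ranked 851. It lies between the divergent genes ADP1 and PGK1, in an interval of 308 bp, with the motif 21 bp from the summit. Inside the ORF a separate interval of 1240 bp had its summit at 267 bp, with 335 fragments over a background of 165 and a fold enrichment of 2.02 (1.81 to 2.25). The intervals of the promoter and ORF values overlap, so the 2 PGK1 summits cannot be told apart in height by counting error, while the promoter interval was narrow and the ORF interval began 8 bp before the start codon and ended 19 bp before the end of the stop codon.

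The promoter stretches around these motifs are shown because they carry the sites at which the pathway's promoter summits lay. Each has 151 bases of sacCer3 (R64) along the gene, with the Abf1 consensus positions in capitals.
PGK1 promoter, chrIII:137163-137313, plus strand: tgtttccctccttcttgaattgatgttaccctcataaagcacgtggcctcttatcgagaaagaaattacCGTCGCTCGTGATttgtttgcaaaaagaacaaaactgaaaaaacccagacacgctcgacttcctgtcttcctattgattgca
FBA1 promoter, chrXI:327896-328046, minus strand: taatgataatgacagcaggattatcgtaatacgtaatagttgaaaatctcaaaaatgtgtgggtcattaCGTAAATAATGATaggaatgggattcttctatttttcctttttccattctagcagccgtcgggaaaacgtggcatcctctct
The core letters of Gcr1 sites, CTTCC, were searched on both strands. They occurred 3 times within 100 bp of the PGK1 upstream summit, at 33, 41 and 58 bp from it. None lay within 100 bp of the FBA1 upstream summit. Such letters lay within 100 bp of 303 of the 948 summits, so they do not set PGK1 apart. In the 1000 bp upstream of the start codon CTTCC occurred at 88.7% of all ORFs and at 9 of the 10 genes. TDH3 was the exception. The Rap1 core letters ACACCCA occurred upstream of ADH1 alone among the 10, and of 8.90% of all ORFs. The Reb1 letters TTACCCG occurred upstream of TPI1 alone, and of 13.5% of all ORFs. Such matches describe the letters and do not show that a factor is bound. Only these exact letters were searched, so the lack of a match does not show that a promoter has no site.

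TDH3 encodes the main glyceraldehyde-3-phosphate dehydrogenase. The gene YGR192C lies on chromosome VII from 882812 to 883810 on the minus strand. It had the highest ORF signal of the 10 genes, with 483 fragments over a background of 146 at 183 bp, a fold enrichment of 3.29 (3.01 to 3.60). A further summit at 814 bp had 405 fragments over a background of 154, a fold enrichment of 2.63 (2.38 to 2.89). The intervals of these values do not overlap, so signal was higher at the summit near the start of the ORF. That summit had an Abf1 motif within 100 bp and the one near the end did not. The single peak interval of 1567 bp began 222 bp before the start codon and ended 346 bp past the stop codon. No match in the 1000 bp upstream reached the threshold, the best scoring 0.815.

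PDC1 encodes the main pyruvate decarboxylase, the first enzyme of the fermentation branch. The gene YLR044C lies on chromosome XII from 232390 to 234081 on the minus strand. It is the longest ORF of the 10 at 1692 bp and had 3 summits, at 175, 667 and 996 bp. Their fold enrichments were 2.35 (2.12 to 2.60), 2.32 (2.09 to 2.58) and 2.07 (1.85 to 2.31), from 374, 362 and 321 fragments over backgrounds of 159, 155 and 154. All 3 counting intervals overlap, and none of the 3 summits had a motif. The peak interval covered 2001 bp, from 66 bp before the start codon to 243 bp past the stop codon.

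ADH1 encodes the main fermentative alcohol dehydrogenase, which reduces acetaldehyde to ethanol. The gene YOL086C lies on chromosome XV from 159548 to 160594 on the minus strand. Its summit at 57 bp had 458 fragments over a background of 146, a fold enrichment of 3.11 (2.84 to 3.41). The summit at 590 bp had 308 fragments over a background of 147, a fold enrichment of 2.09 (1.86 to 2.33). These counting intervals do not overlap either. As at TDH3, the higher summit had a motif within 100 bp and the lower one did not. In both genes the higher summit was also the one nearer the start codon, so motif and position cannot be told apart. The interval of 1393 bp began 129 bp before the start codon and ended 217 bp past the stop codon.

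ENO2 encodes the enolase that predominates on glucose. The gene YHR174W lies on chromosome VIII from 451327 to 452640 on the plus strand. Its only summit, at 345 bp, had 294 fragments over a background of 145 and a fold enrichment of 2.01 (1.79 to 2.26), rank 946 of 948. The interval of 1363 bp ran from 23 bp before the start codon to 26 bp past the stop codon. ENO2 and the PGK1 ORF, at 2.02, were the values just inside the authors' minimum fold enrichment of 2, and values below it are not in the list.

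In each of the 6 genes the interval covered at least 98% of the ORF, with widths of 1240 to 2001 bp and a median of 1480 bp. Elsewhere in the genome, 23 of the 36 intervals over ORFs that had a summit without a motif covered the ORF to that extent, or 63.9%, with a median width of 937.5 bp. Where every summit in the ORF had a motif, 22 of 84 intervals did, or 26.2%. The 98% limit lies just under the lowest of the 6 genes, 98.5% at PGK1. At a limit of 80%, all 6 genes passed, as did 30 of 35 intervals at summits without a motif in other ORFs. Intervals at summits with a motif in other ORFs passed in 34 of 88 cases. The widths also go with ORFs of unlike length, with medians of 1165.5 bp in the 6 genes and 621 bp in the 36 others. The summit nearest the start codon lay 57 to 345 bp into the ORF in the 6 genes, with a median of 224.5 bp, and in all 6 it fell in the first 50% of the ORF, the TDH3 and ADH1 summits being those with a motif. In the 35 other ORFs that had a summit without a motif, the median was 215 bp, and 20 of 35 had it in the first 50%. Among the 17 of these that were at least 600 bp long, 12 did. Counting only summits without a motif, a choice made after the values were seen, the first lay in the first 50% in 4 of the 6 genes, at 175 to 814 bp, and in 19 of the 35 other ORFs.

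**Figure D3:**
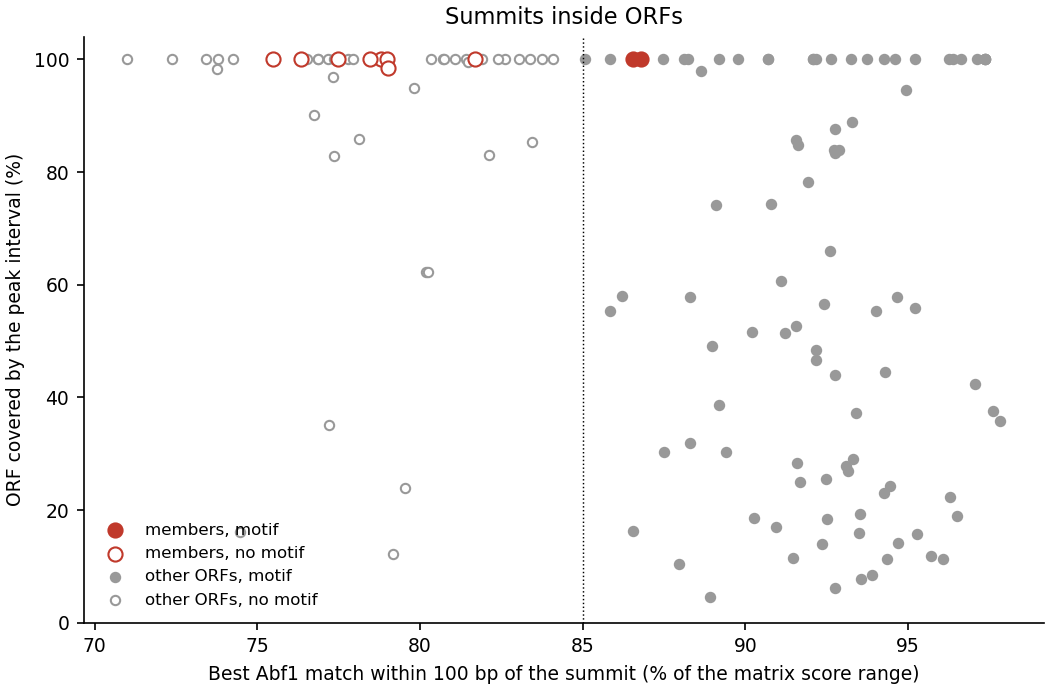
Each point is a summit inside an ORF, with the best Abf1 match within 100 bp on the horizontal axis (percent of the matrix score range, dotted line at 85%) and the percent of the ORF covered by the peak interval on the vertical axis; red points are the 10 summits of the 6 genes, grey points the 133 of other ORFs. All red points lie above 98% of the ORF, and 8 of the 10 lie left of the line.

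Motif matches under the ORF summits were few. Only 2 of the 10 ORF summits had a match at the threshold, or 20%, against 91 of the 133 summits in other ORFs, or 68.4%. Windows of 201 bp laid along ORFs held such a match in 11 of 111 cases in the 10 genes and in 9.46% of cases over all ORFs, which is the share that ORF sequence gives without regard to peaks. The 2 matches are shown because they are the only letters near the ORF summits that passed, and both differ from the strict consensus at 1 of its 13 positions.
ADH1 ORF, 23 bp from the summit, chrXV:160551-160571, minus strand: aggtGTTATCTTCTACGaatc
TDH3 ORF, 92 bp from the summit, chrVII:883710-883730, minus strand: agttGTTGCTTTGAACGaccc
Their scores were 0.866 and 0.868. The best match in the TDH2 ORF also scored 0.868 and the best in the GPM1 ORF 0.883, and neither ORF had a summit. TDH2 shares 95.8% of coding bases with TDH3, so these ORFs are not independent. The GPM1 ORF held an exact consensus 540 bp from the start codon, with a T at −8 bp and no summit within 100 bp. The other 8 ORF summits had best matches of 0.755 to 0.817.

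The heights of the ORF summits were low and narrowly spread. The 10 summits had fold enrichments of 2.01 to 3.29 (median 2.24), with 294 to 483 fragments each, and none reached 4. The authors used only peaks of at least 4 for their rate measurements. They state that this also removes weak apparent binding over ORFs and tRNA genes, which they call a known ChIP artefact. Whether the summits described here are of that kind was not tested. Without the motif summits of TDH3 and ADH1, the other 8 had 2.01 to 2.63 with a median of 2.12. The 42 summits without a motif in 35 other ORFs had 2.01 to 3.89 with a median of 2.33, and also none reached 4. Summits with a motif in other ORFs reached 42.5 with a median of 4.49, and 50 of 91 were at 4 or above. Upstream summits with a motif, over all ORFs, had a median of 5.79. The background under the member ORF summits was 143 to 165 fragments, with a median of 150, against a median of 141 over all 948 summits. The counting error of 1 such summit was 4.55 to 5.83%.

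**Figure D4:**
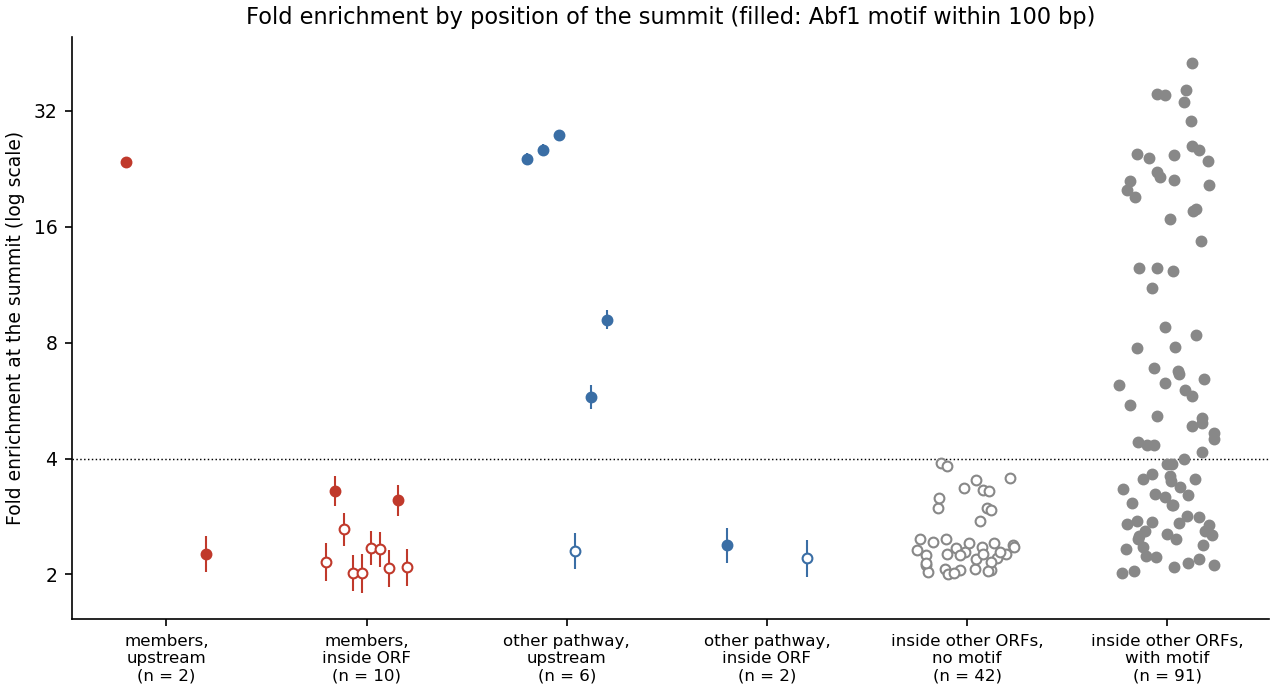
Fold enrichment at the summit (log scale) for the 10 genes (members, red), the 17 other genes of the pathway (blue) and other ORFs (grey), by the summit's position, with exact 95% Poisson intervals for the red and blue points and filled points where an Abf1 motif lay within 100 bp. The 10 ORF summits of the members lie between 2.01 and 3.29, below the dotted line at 4, as do the 42 motif-free summits of other ORFs.

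Among the 41 ORFs that had a summit without a motif, the 6 genes ranked 13 (TDH3), 21 (PDC1), 30 (FBA1), 34 (ADH1), 39 (PGK1) and 40 (ENO2) by the highest such summit. First in that order were CCW12, a cell wall mannoprotein gene, at 3.89 and the ORF YJL007C at 3.82, whose summit also lies in a tRNA gene. YDR524C-B followed at 3.57, then PMA1, the plasma membrane proton pump gene, at 3.51. Ribosomal protein genes, another strongly transcribed set, had a summit inside 17 of 138 ORFs, or 12.3%, with a median fold enrichment of 2.35 over 21 summits, 5 of them with a motif. None of 10 chaperone ORFs had one, while 5 of these 10 genes had an upstream summit with a motif. Over all ORFs the shares were 2.07% inside and 13.6% upstream with a motif.

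The codon adaptation index, which measures how far a gene uses the codons preferred in strongly expressed genes, was computed with the ribosomal protein genes as its base. It stands in for expression, which was not measured in the peak list. The 10 genes had values of 0.828 to 0.923, against a median of 0.218 over 5635 ORFs, and ranked 1 (TDH3), 2 (TDH2), 3 (PDC1), 4 (ENO2), 6 (ENO1), 7 (FBA1), 30 (TPI1), 41 (GPM1), 43 (PGK1) and 54 (ADH1). The median was 0.893 in the 6 genes with an ORF summit and 0.868 in the 4 without, and the ranges overlap. Over the genome, 15 of the 50 ORFs of highest index had a summit inside, or 30%, against 1.27% of ORFs ranked below 1000. Of those 50 ORFs, 9 belong to the 10 genes, 5 of them with a summit, and without them the share was 10 of 41, or 24.4%. ORFs in which no inside summit had a motif had a median index of 0.808, against 0.220 for those with a motif. The first group includes 4 of these genes, and the median index of its 28 ORFs is therefore no separate measurement.

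**Figure D5:**
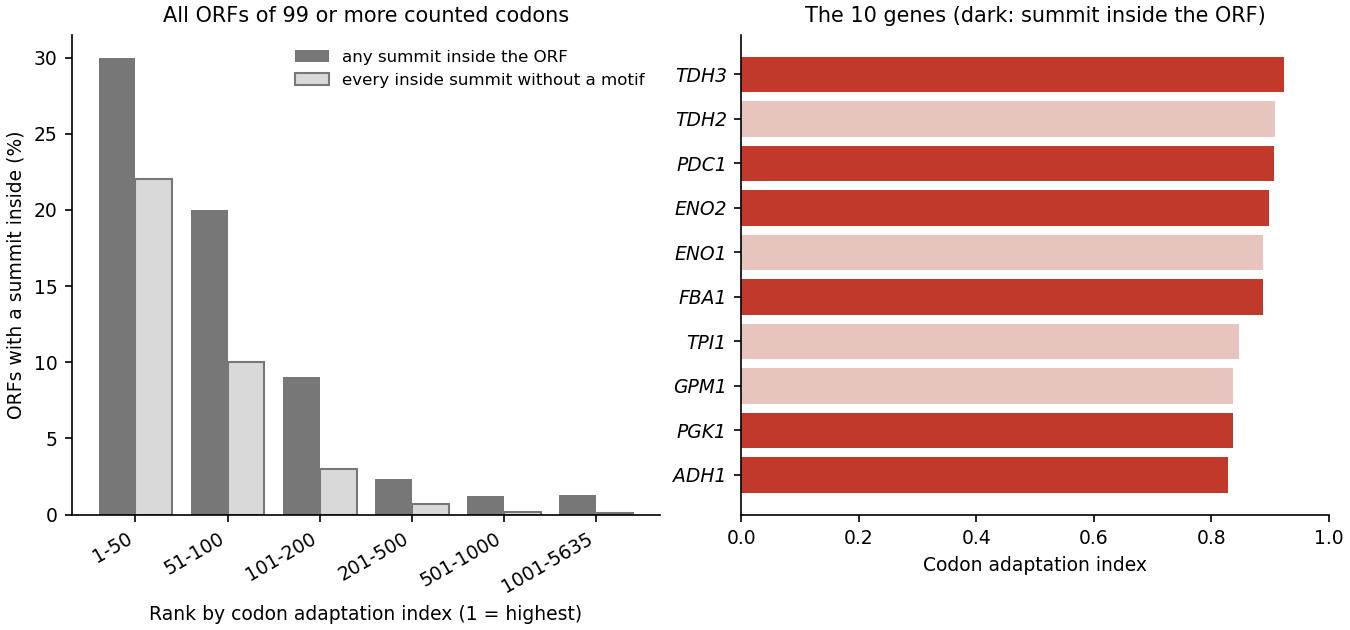
Left, percent of ORFs with a summit inside the ORF, by rank of the codon adaptation index, for any summit (dark) and for ORFs in which no inside summit had a motif (light); right, the index of each of the 10 genes, dark where the ORF had a summit. The share falls to 1.27% in the last bin, against 30% in the first, and the 10 genes all lie at 0.828 or above.

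The 4 genes without a summit are close in function to those with one. TPI1 encodes triose-phosphate isomerase, which interconverts the triose phosphates, and GPM1 the phosphoglycerate mutase; their ORFs of 747 and 744 bp are the shortest of the 10. The nearest summit lay 12483 bp upstream of TPI1 with a fold enrichment of 2.94, and 1129 bp past the stop codon of GPM1, in a tRNA gene, with 3.09. TDH2 encodes a glyceraldehyde-3-phosphate dehydrogenase like TDH3, and its nearest summit was 4614 bp downstream with 11.9. ENO1 encodes an enolase like ENO2, and its nearest summit was 1625 bp upstream with 16.8. No peak interval touched any of the 4 ORFs, so the list gives them no fold enrichment, and their signal failed at least 1 of the list's thresholds.

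The paralogs bear on this because the authors kept uniquely mapping fragments. TDH3 and TDH2 share 95.8% of coding bases and ENO2 and ENO1 share 94.8%. Of the 57-base words in the ORF, the length left of each read after trimming, 79.2% were unique in the genome for TDH3 and 73.1% for TDH2. The share was 81.2% for both ENO2 and ENO1, of which only ENO2 had a summit, and 100% for TPI1 and GPM1, which had none. For ADH1 it was 86.6%, and for PDC1 99.4%. The part of unique mapping in the absence of TDH2 and ENO1 from the list was not tested.

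The 17 other genes of the pathway had more promoter summits with a motif than ORF summits. A summit lay inside the ORF of 2, CDC19 and PFK1, or 11.8%, against 2.07% of all ORFs. An upstream summit with a motif was present at 5, or 29.4%, against 13.6% of all ORFs. The counts in the 10 genes above were 6 and 2. The sites of these 5 other genes are shown because all 5 carry an exact consensus with a G or C at −8 bp, like FBA1 and unlike PGK1. Over the genome, 118 of the 623 exact sites with a summit had a C and 137 a G. Whether the base bears on the signal at these genes was not tested. A further exact consensus overlaps the PFK1 site on the minus strand, 924 bp upstream. It has a T at −8 bp and is not shown.
HXK2, chrVII:23448-23468, plus strand: ggctATCATGCCGGACGgcac
PFK1, chrVII:974646-974666, plus strand: ttccATCGTTTTCAACGatga
PFK2, chrXIII:675366-675386, minus strand: cggaGTCATTATATACGatac
CDC19, chrI:70945-70965, minus strand: ccgtATCACAACCGACGatcc
ADH3, chrXIII:434431-434451, plus strand: tcgcATCACTCGCGACGtcca
HXK2, the main hexokinase gene on glucose, had 3356 fragments and a fold enrichment of 24.0 at 486 bp upstream. PFK1 and PFK2 encode the subunits of phosphofructokinase, and their summits at 918 and 622 bp upstream had fold enrichments of 25.3 and 27.6. The PFK1 summit lies inside the ORF YGR240C-A. CDC19, the pyruvate kinase gene, had 5.79 at 819 bp, and ADH3, a mitochondrial alcohol dehydrogenase gene, 9.18 at 356 bp. The strongest upstream summits of the pathway thus lay at HXK2, PFK1, PFK2 and FBA1, 4 genes of its first steps, with values of 23.5 to 27.6. HXK1, GLK1 and PGI1, also genes of the first steps, had no summit in either position. The PFK2 summit lay closer to the divergent gene YMR206W, at 508 bp, than to PFK2.

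CDC19 resembled the 6 genes in its coding region. Its ORF summit at 456 bp had 323 fragments and a fold enrichment of 2.21 without a motif, in an interval of 1526 bp that ran from 9 bp before the start codon to 14 bp past the stop codon. Its codon adaptation index ranked 5, among the members. The PFK1 ORF summit differed, with a fold enrichment of 2.38, a motif scoring 0.944 and an interval of 334 bp that covered 11.3% of the ORF. An exact consensus with a G at −8 bp also lay 271 bp upstream of ADH4 and had no summit.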

How the data were processed

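The authors trimmed 18 bp from 75 bp paired reads, aligned them to sacCer3 with HISAT2 2.0.5, kept uniquely mapping, deduplicated fragments and called peaks with MACS2 2.1.1.20160309 (q-value threshold 0.001, minimum fold enrichment 2). The deposited list gives fold enrichment, −log10 p-value, −log10 q-value and a score derived from q, which was not used. Members' −log10 q-values, as deposited, were 25.4 to 3270. Fragments and background at each summit were solved from the deposited fold enrichment and p-value and were whole within 0.01 for 941 of 948 summits, with 258 to 10164 fragments per summit, which sets the precision. ORFs were the 6002 protein-coding genes of R64. The matrix came from 403 sequences of summits of fold enrichment 4 or more, with a pseudocount of 0.8. Named genes were all members, every gene with a summit in the fixed lists and the highest other ORFs. Members and lists were chosen with earlier results of these data known. Functions were tested on simulated data. Alternatives varied the fold enrichment minimum, upstream distance, motif rule, summits per interval and assignment. The tools were scipy 1.17.1, pandas 2.3.3 and numpy 2.4.6 under Python 3.11.15, with matplotlib 3.10.9 for plots.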

Additional observations from a re-analysis of the deposited data

How the results depend on the processing

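No paired analysis was possible because the peak list was called on pooled replicates and holds no value per replicate; for the same reason no replicate could be left out. Of 45 combinations of a result and an alternative, 2 of them chosen after seeing the data, 35 stayed within their limits. The ORF calls depend on the fold enrichment minimum, since the number of the 10 genes with a summit inside the ORF was 6 at the authors' minimum of 2, 2 at a minimum of 3 and 0 at a minimum of 4. The number with an upstream motif summit was 2 at the authors' minimum and 1 at both higher minimums. The 12 summits of the 10 genes became 3 and 1 at these minimums and 7 when each interval kept its highest summit. The other pathway genes with an ORF summit, 2 at the authors' minimum, became 0 at both higher minimums, and those with an upstream motif summit became 2 of 5 when the distance was at most 500 bp. A matrix made without the members' peaks, from 402 sequences, left the count of members with an upstream motif summit at 2, while ORF summits are counted without a matrix. At a fold enrichment near 2, with counting intervals reaching below 2 for several ORF summits, a gene's absence from the list is not a measured difference from a gene in it.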

Other observations

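Of 6 regulators of the pathway, 3 had an upstream summit with an Abf1 motif and none had a summit inside the ORF. Over all ORFs these shares were 13.6% and 2.07%. GCR1, the gene of the main activator of glycolytic genes, had a fold enrichment of 3.07 from 444 fragments at 234 bp upstream. Its motif, chrXVI:412016-412036 on the plus strand of sacCer3 with the consensus positions in capitals, is shown because its score of 0.972 was above that of FBA1.
GCR1: atttATCATTTTTTACGtaat
The base at −8 bp is a T, and the fold enrichment was far below the 23.5 of FBA1, whose motif scored 0.970. TYE7, a basic helix-loop-helix activator of glycolytic genes, had 3.64 at 508 bp, with a G at −8 bp. REB1, which encodes another general regulatory factor, had 3.02 at 694 bp, inside the neighbouring ORF REG2. Its motif is an exact consensus, also with a G at −8 bp, so a low value occurred with either base. RAP1, GCR2 and PDC2 had no summit in either position.

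GPM2, a paralog of the mutase gene GPM1, had an upstream summit of fold enrichment 2.31 at 618 bp without an Abf1 motif, the best match scoring 0.746. It lies 335 bp past the end of the GPD1 ORF, and the Rap1 core letters ACACCCA lie 3 bp from it. Those letters lay within 100 bp of 36 of the 948 summits, or 3.80%. ADH5 had a summit 283 bp beyond its stop codon, with a fold enrichment of 13.0, and none inside or upstream.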
